A study of Cavia porcellus with 12 samples.

Results

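The genes described here carry the insulin signal from the surface of a liver cell to its nucleus, together with the receptors of the fat-cell hormone adiponectin. They were chosen by name as *INSR*, *IRS1*, *IRS2*, *PIK3R1*, *AKT1*, *AKT2*, *FOXO1*, *FOXO3*, *ADIPOR1* and *ADIPOR2*, and those that are rows of the authors' table of regularised log values were taken. This gave 8 of the 10, out of 11896 genes in all. *IRS2* and *FOXO1* were not analysed here. Liver mRNA came from 6 NASH and 6 control guinea pigs of the Dunkin Hartley strain, all of them female. The NASH animals had eaten a high-fat diet with added sucrose and cholesterol for 25 weeks and were picked for bridging fibrosis. The controls had eaten chow for 25 weeks and were drawn at random from animals free of NASH and fibrosis, and the labels give no age. Per the methods, all animals were young and of the same age when they entered the study. Diet and disease go together in this design and cannot be told apart. The livers were not perfused, so blood is part of the tissue. Animals are named by their numbers, 5, 10, 31, 32, 45 and 56 for controls and 2, 9, 11, 20, 41 and 65 for NASH.

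Insulin binds its receptor, a tyrosine kinase encoded by *INSR*, which phosphorylates the docking proteins IRS1 and IRS2. These recruit phosphoinositide 3-kinase through its regulatory subunit p85, the product of *PIK3R1*, and the lipid that the kinase makes brings AKT1 and AKT2 to the membrane, where they are activated. AKT phosphorylates the transcription factors FOXO1 and FOXO3, which then leave the nucleus, and in the liver this lowers the transcription of genes for glucose production. Adiponectin acts through ADIPOR1 and ADIPOR2 on AMP-activated protein kinase and PPAR alpha. Most steps of this cascade are set by phosphorylation, which mRNA does not measure, so the values below are transcript levels only.

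Between 16980274 and 33091460 counts were obtained per animal. Levels are given in CPM, counts scaled to a common library total with the factors of TMM, a method that corrects for a few abundant transcripts taking up different shares of the libraries. The lowest count of any of the 8 genes in any animal was 344, so counting error was at most 5.39% of a value. Of the hepatocyte markers, all 8 analysed had negative log2 fold changes, from -2.20 for *TTR* to -0.18 for *ASGR1*, and 7 passed the test. Their summed level was between 96706 and 120079 CPM in controls and between 38134 and 60211 CPM in NASH. All 4 cholangiocyte markers were higher (summed level 63.0 to 93.5 CPM in controls, 264 to 482 CPM in NASH), as were 6 of 7 markers of stellate cells and fibroblasts (564 to 679 and 1070 to 2141 CPM). Of the other lists, macrophage markers summed to 231 to 310 CPM in controls and 316 to 390.5 CPM in NASH. Among them *CD68* passed as higher (log2 fold change 0.69), *MARCO* passed as lower (-1.27) and *CSF1R* did not pass. Endothelial markers summed to 444 to 582 and 464 to 688 CPM. There *PECAM1* (0.47) and *STAB2* (0.45) passed as higher, *LYVE1* (-0.81) as lower, and *CDH5* and *KDR* did not pass. T-cell markers summed to 48.3 to 103 and 25.0 to 52.3 CPM, but only *CD3E* passed (-1.06), and *CD3D* (-0.13) and *CD2* (0.04) did not. B-cell markers summed to 5.87 to 10.9 and 14.2 to 24.3 CPM, and all 3 passed as higher. The only adipocyte marker analysed, *CIDEC*, was between 1.17 and 2.19 CPM in every animal. The 4 erythroid markers summed to 57.4 to 172 CPM in controls and 427 to 4531 CPM in NASH, with animals 41 and 65 far above the other NASH animals. In RNA from whole tissue, fewer cells of a type and less RNA per cell cannot be told apart.

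Of the 8 genes, 4 passed edgeR's quasi-likelihood test at a Benjamini-Hochberg adjusted p-value under 0.05, against 53.9% of all genes tested. *AKT1* was higher in NASH, and *INSR*, *ADIPOR2* and *IRS1* were lower. Over all genes, 27.9% passed as higher and 26.0% as lower, so the share of these 8 genes that passed was close to that of the whole table. The CPM of the NASH animals did not overlap that of the controls in *INSR*, *AKT1* and *ADIPOR2*, 3 of 8 genes, against 33.7% of all genes. The median log2 fold change of the 8 was -0.27, against 0.00 over all genes.

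**Figure D1:**
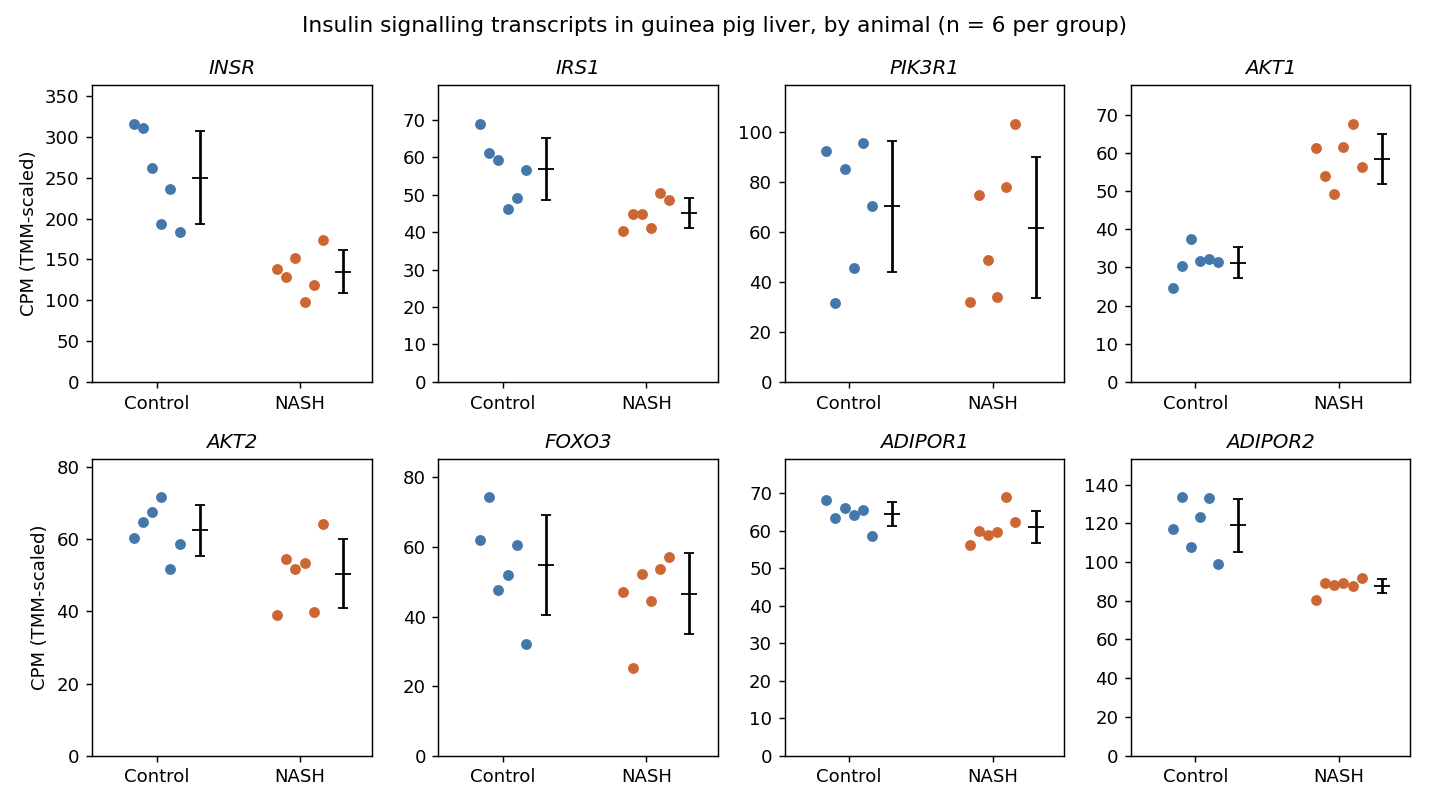
CPM (TMM-scaled, linear axis from 0) of each of the 8 genes in every animal, with controls in blue and NASH in orange. Dots are animals and bars are the mean ± SD of 6. The groups are apart in *INSR*, *AKT1* and *ADIPOR2* and overlap in the other 5 genes.

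The receptor gene *INSR* showed the largest fall. In controls it ranged from 183 to 316 CPM with a median of 249, and in NASH from 97.97 to 174 CPM with a median of 134. Animals 56 and 32 were the lowest controls and animal 65 was the highest with NASH, at 174 CPM, just below control 56. The means were 250 ± 56.6 CPM in controls and 135 ± 26.3 CPM in NASH (SD, n = 6 each). The log2 fold change was -0.89 (SE 0.17, edgeR adjusted p = 0.000582), a level of 0.539 times that of controls with a 95% interval from 0.420 to 0.691. It fell under each of the 12 alternative analyses as well, by between 0.42 and 0.96 on the log2 scale. Its fall stood beside that of the hepatocyte markers, and their part in it was not tested.

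*IRS1* encodes one of the docking proteins that the receptor phosphorylates. It ranged from 46.2 to 69.0 CPM in controls (median 57.8) and from 40.4 to 50.5 CPM in NASH (median 44.9). Controls 32 and 45, at 46.2 and 49.1 CPM, lay within the range of the NASH animals, so the groups overlapped. The means were 56.8 ± 8.29 and 45.1 ± 3.98 CPM (SD, n = 6 each), or -0.33 in log2 fold change (SE 0.10, edgeR adjusted p = 0.0125). With library size in place of the TMM factors this fall turned into a value of 0.14 (edgeR adjusted p = 0.174), at a median over all genes of 0.48. Without a filter on low counts it no longer passed (-0.24, edgeR adjusted p = 0.0606).

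*PIK3R1*, the gene of the p85 subunit, varied more between animals than any other of the 8 genes. It ranged from 31.5 to 95.6 CPM in controls (median 78.0) and from 32.03 to 103 CPM in NASH (median 61.7). Controls 10 and 32 had 31.5 and 45.7 CPM and the other controls at least 70.6 CPM. In NASH, animals 2, 20 and 11 had 32.03, 34.2 and 48.7 CPM and animals 9, 41 and 65 had 74.7, 78.0 and 103 CPM. Both groups thus held low and high animals, and the coefficient of variation was 37.5% in controls and 45.6% in NASH. The log2 fold change was -0.18 (SE 0.34, edgeR adjusted p = 0.667), and its 95% interval from -0.91 to 0.54 holds changes of either sign. With each animal left out in turn it ranged from -0.40 (without NASH animal 65) to -0.06 (without NASH animal 2), without animals 41 and 65 it was -0.57 (edgeR adjusted p = 0.193), and with library size alone it was 0.27. It passed in none of these fits.

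**Figure D2:**
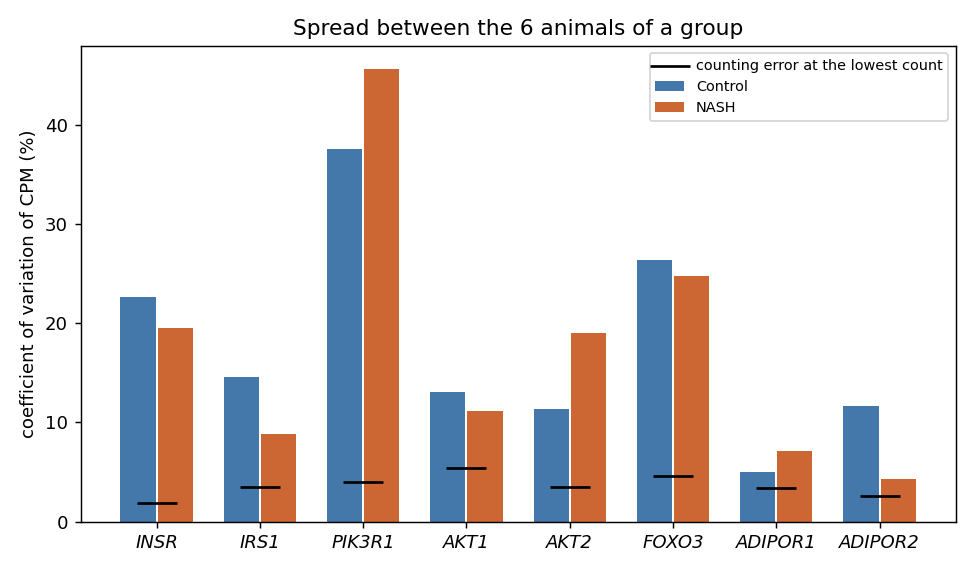
Coefficient of variation of CPM in percent between the 6 animals of each group (blue controls, orange NASH), with black lines at the counting error of the lowest count of each gene. *PIK3R1* has the tallest bars and *ADIPOR1* the lowest in controls.

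The kinase genes *AKT1* and *AKT2* changed unequally, and only *AKT1* was among the 4 genes that passed. *AKT1*, which is expressed in most tissues, ranged from 24.6 to 37.3 CPM in controls (median 31.5) and from 49.2 to 67.6 CPM in NASH (median 58.7). Every NASH animal was above every control. The means were 31.2 ± 4.08 and 58.3 ± 6.51 CPM (SD, n = 6 each), or 0.90 in log2 fold change (SE 0.10, edgeR adjusted p = 1.1e-05) and a level 1.87 times that of controls with a 95% interval from 1.60 to 2.17. It passed in all 12 alternative analyses, with log2 fold changes from 0.55 to 1.37.

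*AKT2*, the form most tied to the metabolic action of insulin in liver, ranged from 51.7 to 71.6 CPM in controls (median 62.6) and from 39.0 to 64.3 CPM in NASH (median 52.7). Animals 2 and 41, at 39.0 and 39.9 CPM, lay below all controls, whereas animal 65, at 64.3 CPM, lay above 3 of the 6 controls. The log2 fold change of -0.31 (SE 0.13, edgeR adjusted p = 0.0537) missed the threshold, and its own 95% interval ran from -0.58 to -0.04. The call depended on the analysis. With DESeq2 the adjusted p-value was 0.0439, with limma-voom 0.0454 and with limma on the regularised log values 0.0460, and edgeR gave 0.0332 without control 45, 0.0140 without animal 65 and 0.0370 without animals 41 and 65. With library size alone the value was 0.16 (edgeR adjusted p = 0.234).

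A ratio of 2 genes within an animal does not depend on the scaling between animals. The ratio of *AKT2* to *AKT1* counts was therefore compared on the log2 scale. The level of such a ratio also reflects the lengths of both transcripts, so only its difference between groups is read. In controls it ranged from 0.69 to 1.29, with a mean of 1.002 ± 0.224 (SD, n = 6). In NASH it ranged from -0.76 to 0.19, with a mean of -0.22 ± 0.40 (SD, n = 6). All 6 NASH animals lay below all 6 controls, and animals 41 and 2 had the lowest values, -0.76 and -0.65. The difference of -1.22 had a two-sided exact permutation p-value of 0.00216 over 924 assignments, the smallest this design can give, and 0.00216 after adjustment over the 2 ratios tested. This shows unequal change of the pair and not which of them changed.

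**Figure D3:**
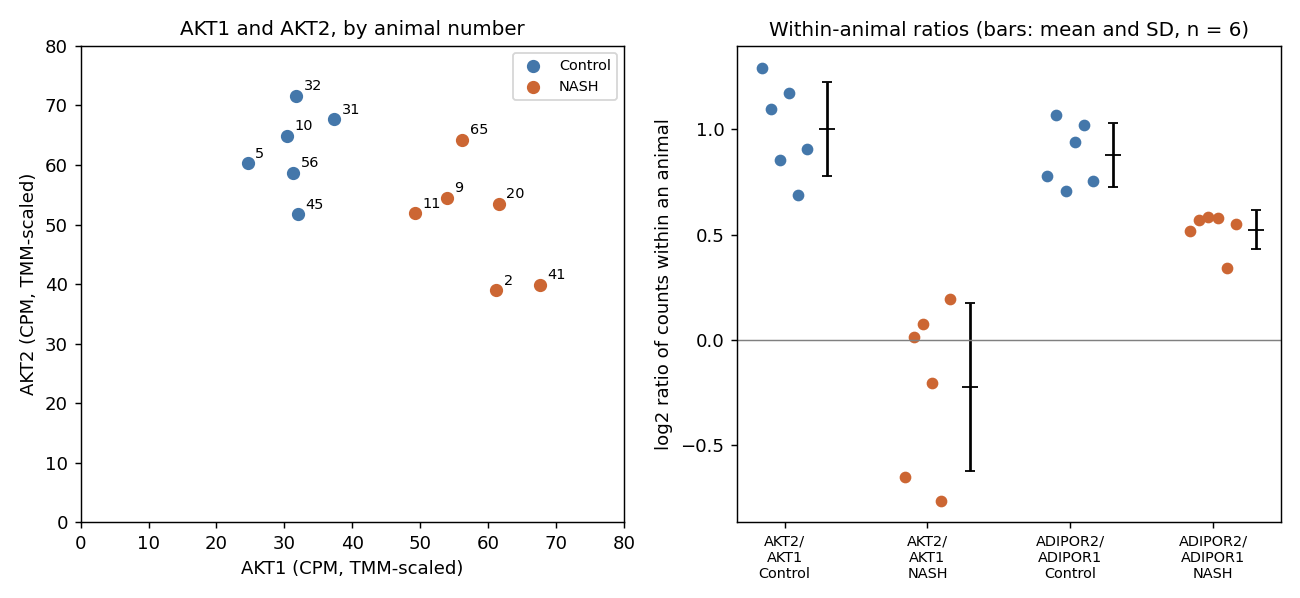
Left, *AKT2* against *AKT1* in CPM with each animal's number (blue controls, orange NASH). Right, log2 ratios of counts within each animal for *AKT2* over *AKT1* and *ADIPOR2* over *ADIPOR1*, with bars for the mean ± SD of 6. In both ratios every NASH animal lies below every control.

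*FOXO3* encodes one of the transcription factors that AKT keeps out of the nucleus. It ranged from 32.04 to 74.3 CPM in controls (median 56.2) and from 25.1 to 57.2 CPM in NASH (median 49.7). The lowest animal of each group, control 56 at 32.04 CPM and NASH animal 9 at 25.1 CPM, stood below the rest, and the groups overlapped over most of their range. The log2 fold change was -0.23 (SE 0.21, edgeR adjusted p = 0.379), with a 95% interval from -0.69 to 0.23. It was -0.10 without NASH animal 9, -0.13 without control 10 and -0.35 without control 56, and passed in none of these 3 fits. Its count row also carries the symbol *FOXO3B*, a near-identical human copy, so the value belongs to both symbols.

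The adiponectin receptor genes differed in how they changed. *ADIPOR2*, whose product is the main adiponectin receptor of liver, ranged from 99.1 to 133 CPM in controls (median 120) and from 80.6 to 91.6 CPM in NASH (median 88.7). The groups did not overlap, and the NASH animals lay close together, with a coefficient of variation of 4.27% against 11.6% in controls. The means were 119 ± 13.8 and 87.7 ± 3.75 CPM (SD, n = 6 each). The log2 fold change was -0.44 (SE 0.08, edgeR adjusted p = 0.000437), a level of 0.737 times that of controls with a 95% interval from 0.655 to 0.829, but with library size alone it was 0.04 (edgeR adjusted p = 0.677).

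*ADIPOR1*, the more widely expressed receptor, ranged from 58.7 to 68.2 CPM in controls (median 64.97) and from 56.3 to 68.9 CPM in NASH (median 59.9). Animals of both groups were interleaved, and animal 41 with NASH was the highest of all 12. The log2 fold change was -0.08 (SE 0.06, edgeR adjusted p = 0.320), and its 95% interval from -0.21 to 0.06 was the narrowest of the 8 genes. With library size alone it was 0.40 (edgeR adjusted p = 7.82e-05), where all genes had a median of 0.48. Its count row is shared with *CYB5R1*, the gene of a cytochrome b5 reductase, so reads of both genes are in these values and cannot be separated.

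The log2 ratio of *ADIPOR2* to *ADIPOR1* ranged from 0.71 to 1.07 in controls, with a mean of 0.88 ± 0.15 (SD, n = 6), and from 0.34 to 0.58 in NASH, with a mean of 0.52 ± 0.09 (SD, n = 6). All 6 NASH animals lay below all 6 controls. The difference of -0.35 had a two-sided exact permutation p-value of 0.00216 (adjusted over both ratios 0.00216), again the smallest the design allows. The row shared with *CYB5R1* limits this ratio in the same way. The planned ratios of *IRS2* to *IRS1* and of *FOXO3* to *FOXO1* were not analysed here.

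**Figure D4:**
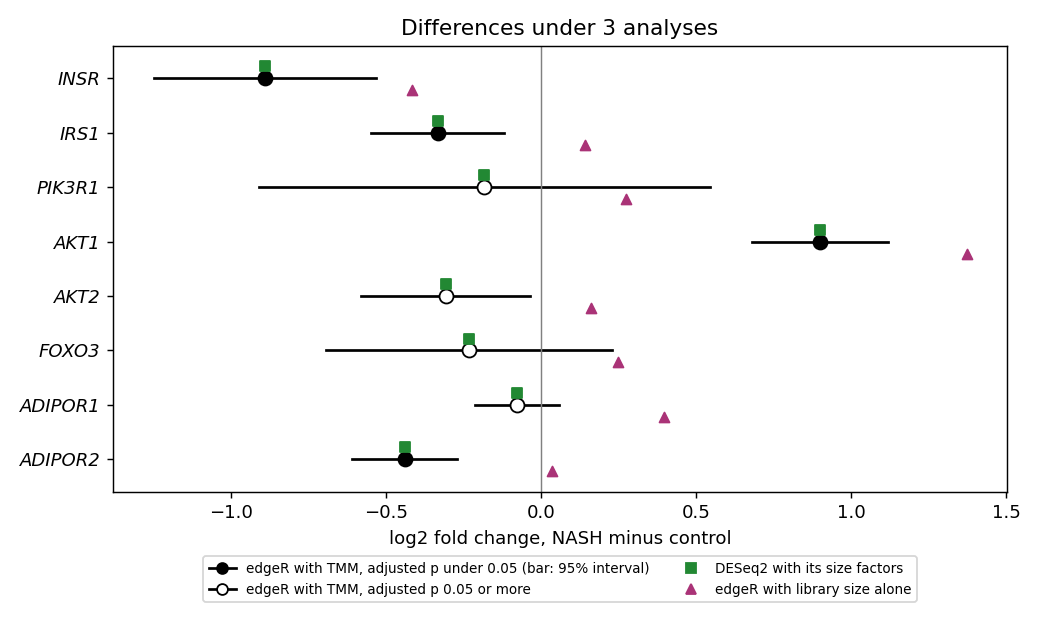
Log2 fold changes (NASH minus control) of the 8 genes from edgeR with TMM factors (circles with 95% intervals, filled where the adjusted p-value is under 0.05), from DESeq2 (squares) and from edgeR with library size alone (triangles). *INSR* and *AKT1* keep their sign in all 3, whereas the triangles of the other 6 genes lie above 0.

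The choice of scaling decides the sign of small changes. The TMM factors were 0.804 to 0.875 in controls and 1.116 to 1.241 in NASH, and with library size alone 7603 of all genes passed as higher and 911 as lower, in place of 3318 and 3093. Under that scaling the 8 genes had a median of 0.20, which is 0.27 below the median of all genes, as it was with TMM. Of the 8, *AKT1* and *ADIPOR1* then passed as higher and *INSR* as lower.

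Beyond these genes, 84 of 104 further symbols of the pathway, in 7 lists written from their known roles, were analysed. Of the 84, 21 were higher and 20 lower in NASH, 48.8% against 53.9% of all genes, with a median log2 fold change of -0.09. The counts were 54 higher and 6 lower with library size alone.

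Of the receptor and adaptor list, 7 of 11 were analysed, 1 was higher and 1 lower, and the median was -0.11. All 7 passed as higher with library size alone. *IGF1R*, the receptor of insulin-like growth factor 1 and the closest relative of *INSR*, had 0 to 32 counts in controls and 115 to 194 in NASH. Its level was 0.859 ± 0.537 CPM in controls and 4.62 ± 0.399 CPM in NASH (SD, n = 6 each), or 2.39 in log2 fold change (SE 0.41, edgeR adjusted p = 0.000347), opposite in sign to that of *INSR*. *CRK*, an adaptor protein, had a log2 fold change of -0.21 (SE 0.06, edgeR adjusted p = 0.00981), and of 0.27 with library size alone. It did not pass with upper-quartile factors (-0.13, edgeR adjusted p = 0.0594) or without a filter on low counts (-0.12, edgeR adjusted p = 0.162). *SHC1*, *GRB2*, *SOS1*, *SOS2* and *SH2B1* did not pass.

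Of the list from PI3K to AKT, 10 of 13 were analysed, with 5 higher, 0 lower and a median of 0.31. With upper-quartile factors 7 passed as higher, and with library size alone all 10. *PIK3CD* and *PIK3CG*, the catalytic subunits best known from white blood cells, had the largest log2 fold changes. *PIK3CD* rose from 14.1 ± 2.71 to 29.9 ± 4.57 CPM (SD, n = 6 each), by 1.08 on the log2 scale, and *PIK3CG* from 1.16 ± 0.441 to 3.18 ± 0.879 CPM, by 1.44. The levels of leukocyte markers are given above, and their part in these changes was not tested. *PIK3CA*, a catalytic subunit found in most cells, had a log2 fold change of 0.16 and did not pass. *PIK3R3*, another regulatory subunit, had the lowest value, -0.16, and did not pass (edgeR adjusted p = 0.315), and its row carries a second symbol.

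Of the negative regulators, 18 of 22 were analysed, with 6 higher, 4 lower and a median of 0.06 (with library size alone 13 higher and 0 lower). *PRKCD*, a protein kinase C that can phosphorylate IRS1, rose most, from 12.5 ± 2.84 to 33.4 ± 3.89 CPM (SD, n = 6 each), or 1.41 in log2 fold change (SE 0.15, edgeR adjusted p = 7.53e-06). *ENPP1*, a membrane protein that binds the insulin receptor, rose by 0.95, the AKT phosphatase gene *PHLPP2* by 0.82 and the ubiquitin ligase gene *CBLB* by 0.81, each without overlap between the groups. *PHLPP2* had 3.43 ± 0.655 CPM in controls and 6.11 ± 0.590 CPM in NASH (SD, n = 6 each). Its relative *PHLPP1* had higher CPM and fell, from 28.1 ± 2.75 to 21.5 ± 1.36 CPM, or -0.39 in log2 fold change (edgeR adjusted p = 0.001). The groups were apart in it, as they were in *PTPN1*, which rose by 0.52, and *MAPK8*, which fell by 0.35. *TRIB3*, a pseudokinase that binds AKT, had the lowest log2 fold change, -0.69 (SE 0.24, edgeR adjusted p = 0.0270). It did not pass when any of 7 animals (controls 5, 10, 32 and 56 and NASH animals 2, 11 and 20) was left out, with adjusted p-values up to 0.0626 from edgeR. Its value was -0.21 with library size alone (edgeR adjusted p = 0.407), and without a filter on low counts the edgeR adjusted p was 0.0627.

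Of the AKT substrates and mTORC1 genes, 15 of 19 were analysed, with 3 higher, 4 lower and a median of -0.03 (with library size alone 10 higher and 1 lower). *TBC1D4* and *TBC1D1*, whose products link AKT to glucose transporter traffic, rose by 2.76 (SE 0.47) and 1.35 (SE 0.16) on the log2 scale. *TBC1D4* had only 0 to 29 counts in controls and 79 to 290 in NASH. *GYS2*, the liver glycogen synthase, fell by 1.41 on the log2 scale, from 242 ± 52.4 to 91.2 ± 14.2 CPM (SD, n = 6 each, edgeR adjusted p = 4.57e-06). *PDE3B*, a cyclic AMP phosphodiesterase, fell by 0.68 and *EIF4EBP2*, a translation repressor, fell by 0.64. With library size alone *PDE3B* and *EIF4EBP2* did not pass (-0.20 and -0.16).

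**Figure D5:**
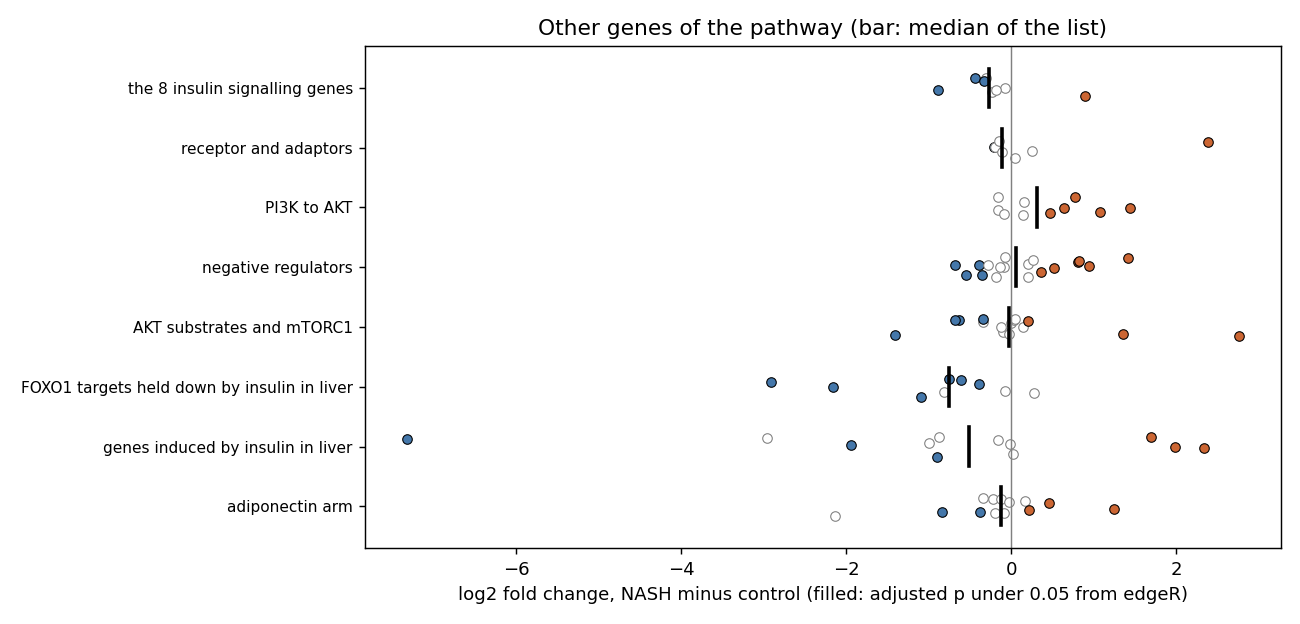
Log2 fold changes (NASH minus control, edgeR with TMM) of the 8 genes and of the 7 further lists, one dot a gene, filled orange or blue where higher or lower at an adjusted p-value under 0.05, with a bar at each list's median. The list of FOXO1 targets holds 6 filled dots, all below 0, and the list of genes induced by insulin holds 3 on each side.

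The genes that act at the end of the pathway are those that insulin holds down through FOXO1 and those that it induces. Of the first list, in which *G6PC* and *G6PC1* are names of the same gene, 9 of 11 symbols were analysed, with 0 higher, 6 lower and a median of -0.76. *PCK1*, the gluconeogenic enzyme phosphoenolpyruvate carboxykinase, ranged from 741 to 1991 CPM in controls and from 92.5 to 282 CPM in NASH, or -2.91 in log2 fold change (SE 0.33, edgeR adjusted p = 1.39e-05). *G6PC*, the glucose-6-phosphatase that releases glucose, fell without overlap as well, from 717 ± 130 to 160 ± 28.4 CPM (SD, n = 6 each). Both enzymes are made mainly by hepatocytes, whose markers had log2 fold changes from -2.20 to -0.18, and the part of this in the falls was not tested. *IGFBP1*, which was chosen after its values were seen, did not pass, at 300 ± 246 CPM in controls and 171 ± 51.4 CPM in NASH (SD, n = 6 each, edgeR adjusted p = 0.112), and control 56 alone had 786 CPM. *TXNIP* had the highest value of the list, 0.28 (edgeR adjusted p = 0.243). It passed without control 56, at 0.44 (edgeR adjusted p = 0.0428), and with library size alone, at 0.75 (edgeR adjusted p = 0.00402), and was 0.12 without NASH animal 9. With library size alone 1 gene of this list passed as higher and 2 as lower.

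Of the genes induced by insulin, 12 of 13 were analysed, 3 higher and 3 lower, with a median of -0.51 (with library size alone 6 higher and 3 lower). *FASN*, the fatty acid synthase, rose from 45.2 ± 15.8 to 179 ± 25.2 CPM and its regulator *SREBF1* rose from 15.4 ± 7.53 to 50.2 ± 8.85 CPM (SD, n = 6 each), by 1.98 (SE 0.20) and 1.70 (SE 0.29) on the log2 scale. *ACACA*, *ACLY* and *ELOVL6*, which also act in fatty acid synthesis, did not pass, at log2 fold changes of -0.01, -0.15 and 0.03. *ME1*, the malic enzyme that supplies NADPH, rose by 2.34, with 4 to 16 counts in controls and 55 to 102 in NASH. The glucose-responsive regulator *MLXIPL* went the other way, from 340 ± 64.4 to 88.3 ± 22.7 CPM (SD, n = 6 each), or -1.95 in log2 fold change (SE 0.18, edgeR adjusted p = 2.38e-06). *THRSP* had the lowest value, -7.33 (SE 1.02). It had 30 to 1272 counts in controls, where animals 31 and 56 were far below the other 4, and 0 to 14 counts in NASH, where animals 9 and 41 had 0, so the size of the fitted value rests on few counts, and it did not pass with limma-voom.

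Of the further genes of the adiponectin arm, 13 of 15 were analysed, 3 higher and 2 lower, with a median of -0.12 (with library size alone 7 higher and 0 lower). The catalytic subunit of AMP-activated protein kinase encoded by *PRKAA1* fell by 0.38 on the log2 scale, from 87.3 ± 8.44 to 67.2 ± 3.18 CPM (SD, n = 6 each), but with library size alone its value was 0.10. The regulatory subunit gene *PRKAG2* rose from 2.79 ± 0.903 to 6.57 ± 0.789 CPM, by 1.25 (SE 0.18). *PRKAG1* and *PRKAB2*, regulatory subunit genes with higher CPM (means of 41.9 and 36.7 in controls), did not pass, at -0.20 and -0.12. *RACK1*, a scaffold protein, rose by 0.22 (edgeR adjusted p = 0.00397). *PRKAB1* had the lowest value, -2.14 (SE 0.92), at no more than 58 counts in any animal, and did not pass (edgeR adjusted p = 0.0668), though it did without control 32 (edgeR adjusted p = 0.0244) and with limma on the regularised log values (-0.29, limma adjusted p = 0.0140). *PPARA*, at 0.16, did not pass.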

How the data were processed

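Liver RNA of 6 controls and 6 guinea pigs with NASH was analysed, with groups and animal numbers from the sample labels. Per the labels and the study's methods, the authors trimmed reads (Trimmomatic 0.38.0), aligned them to the Ensembl guinea pig genome (HISAT2 2.1.0), discarded multimapped reads and quantified loci (StringTie 1.3.6). They deposited raw counts per locus, without normalisation or symbols, and log2 values from the rlog transformation of DESeq2, for loci with a human orthologue, whose symbol they carry, and a total count of at least 200. Repeating this transformation returned the deposited log2 values of all 11896 symbols to within 8e-07 and so gave the count row of each. Those symbols lie on 11031 rows, of which some carry several. Counts were tested with edgeR 4.0.16 (TMM, whole-table library sizes, glmQLFit with robust estimation, glmQLFTest, Benjamini-Hochberg over all 11896 symbols, threshold 0.05, no covariate) in R 4.3.3. The standard error is the absolute log2 fold change over the root of F, and 95% intervals use the t distribution of the fit. Ratios used a pseudocount of 0.5 counts and a two-sided exact permutation test. Counting error is Poisson only. Within a group, every pair of animals differed by at least 50.1 times the counting variance, so no pair agreed within counting error. That the samples are separate animals rests on the labels and the study's methods.

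The members and lists were chosen with earlier results of these data known. The rule for naming takes the 8 genes, the highest and lowest gene of each list and the next 3 past the threshold without overlap. *IGFBP1*, *PHLPP1*, *PTPN1* and *MAPK8* were chosen after their values were seen. So were the genes outside this rule that are named as not passing and the alternative without animals 41 and 65. Alternatives were RLE and upper-quartile factors, library size alone, DESeq2 1.42.0, limma 3.58.1 (voom, and on rlog values), no filter, filterByExpr, a stricter threshold (0.01), glmTreat with a minimum log2 change of 0.5 in size, each row once, and each animal left out. Scripts were tested on simulated data. No sequence is shown, and 1 gene of the lists is not reported here. Figures were drawn with matplotlib 3.10.9.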

Additional observations from a re-analysis of the deposited data

Results flagged for a closer look

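In 20 groups of 6 values (the 8 genes and the 2 ratios, each in controls and in NASH), 1 value stood apart from the other 5 by more than the 95% critical value of Dixon's test for 6 values. Chance flags about 1 in 20 such groups. The value was the log2 ratio of *ADIPOR2* to *ADIPOR1* in NASH animal 41, at 0.34, whereas the other NASH animals lay between 0.52 and 0.58 (gap 0.724 of the range). Without animals 41 and 65 the difference between the groups was -0.32 (two-sided exact permutation test, adjusted p = 0.0143).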

How the results depend on the processing

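Of the 8 genes, between 4 and 5 passed with each animal left out in turn, of the further pathway genes between 40 and 44, and of all genes between 6046 and 6338. The extra gene was *AKT2*. With library size alone the log2 fold changes reversed to 0.14 for *IRS1*, 0.16 for *AKT2*, 0.27 for *PIK3R1*, 0.25 for *FOXO3*, 0.40 for *ADIPOR1*, 0.035 for *ADIPOR2*, 0.27 for *CRK*, 0.33 for *PIK3R3* and 0.10 for *PRKAA1*, since that scaling moves the median of all genes from 0.00 to 0.48. Without a filter on low counts *ADIPOR1* had 0.0099 (the cause was not tested). The count of all genes past the threshold was 10813 without a filter on low counts and 9823 with filterByExpr, where more rows were tested. When tested against a log2 change of 0.5 in size it was 2664, with 2 of the 8 genes (*INSR* and *AKT1*) and 19 of the further pathway genes. Both within-animal ratios kept their direction and stayed under 0.05 with another pseudocount, with rlog values, with medians and with each animal left out. For *AKT2* over *AKT1* the difference was -0.75 with rlog values, -1.10 with medians and -1.31 to -1.12 with an animal left out, and for *ADIPOR2* over *ADIPOR1* it was -0.23, -0.30 and -0.39 to -0.32. No paired analysis was possible because the animal numbers of the groups do not overlap and the labels name no pairing. Of the 8 genes none is limited by depth, whereas *IGF1R*, *PIK3CG*, *TBC1D4*, *ME1*, *THRSP* and *PRKAB1* rest on few counts in one or both groups.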
